A study of Mus musculus with 6 samples.

Results

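The platelet-derived growth factor (PDGF) family of the mouse was followed here as 6 genes, the 4 ligand genes Pdgfa, Pdgfb, Pdgfc and Pdgfd and the 2 receptor genes Pdgfra and Pdgfrb. They were taken by symbol from the 29018 genes of the deposited expression table, where each symbol had 1 identifier, and all 6 passed the filter on low counts that left 18221 genes for testing. The libraries were made from polyA RNA of calvarial osteoblasts, the bone-forming cells of the skull vault, grown from neonatal mice and put through osteogenic differentiation. The cells were either NDR1 KO (3 libraries), made to lack the serine/threonine kinase NDR1 encoded by Stk38, or WT (3 libraries). The labels gave no strain, sex or allele, and did not say whether libraries came from separate animals or cultures, so p-values reflect no more than how these libraries vary, which may be technical. All cultures of both genotypes had been differentiated, and no undifferentiated group was analysed.

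PDGF chains are secreted as disulfide-linked dimers and signal through a pair of related receptor tyrosine kinases. The alpha receptor binds mainly the A, B and C chains and the beta receptor mainly the B and D chains. The C and D chains leave the cell in a latent form and become active only after proteases cut off their CUB domain. Ligand-bound receptors phosphorylate themselves and recruit PI3K, phospholipase C gamma, SRC family kinases and SHP2. In bone, PDGF is known as a mitogen and attractant for mesenchymal precursors of osteoblasts, and the beta receptor also marks pericytes.

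NDR1 KO osteoblast cultures held more mRNA of the ligands Pdgfa, Pdgfc and Pdgfd and less of both receptors than WT cultures. Pdgfc rose 1.62-fold and Pdgfra, the alpha receptor gene, fell to 65.7% of its WT level. Pdgfrb, the beta receptor gene, fell to 90.0% and was still the most abundant of the 6 transcripts. Pdgfb was barely read in either genotype. The calls differ in firmness. Those of Pdgfc, Pdgfra and Pdgfrb held in all 15 alternatives, though Pdgfrb came near the threshold, with an adjusted p of up to 0.0476 over edgeR, DESeq2 and limma. Pdgfd missed the threshold in 6 of 15 and Pdgfa in 3 of 15, and Pdgfa may share reads with a gene on the other strand. By the edgeR quasi-likelihood test, with p-values adjusted after Benjamini-Hochberg over every gene tested, 5 of the 6 genes passed at an adjusted p under 0.05, 3 higher and 2 lower in KO. Of all genes tested 22.9% passed, 11.2% higher and 11.7% lower, and of those with a mean of at least 1 FPKM 28.4% passed. FPKM are fragments per kilobase of transcript scaled to library depth and allow levels of different genes to be compared. CPM are counts scaled to library size after TMM adjustment between libraries, and all changes are log2 KO over WT ± SE.

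Total counts per library ran from 61461870 to 76159034, and the counts of the 6 genes from 16 to 33071 per library. The knocked-out gene Stk38 was still read, at 50.3, 47.9 and 52.52 CPM in KO and 73.1, 77.4 and 79.45 CPM in WT, so that every KO library was lower. It stood at 65.6% of its WT level (edgeR, Benjamini-Hochberg adjusted p = 8.10e-06), and the labels do not say which part of the gene was deleted. Among osteoblast genes Col1a1, a chain of type I collagen, stood at 3363 ± 74.9 FPKM in KO and 4469 ± 100.6 FPKM in WT. The 10 osteoblast markers described further on did not all move alike, since 5 fell, Spp1 rose and 4 did not pass. In whole cultures, fewer cells of a type and less RNA per cell cannot be told apart.

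The order of the 6 genes by FPKM was the same in every library. In the KO libraries Pdgfrb was followed by Pdgfra, Pdgfd, Pdgfc, Pdgfa and Pdgfb, at means of 72.7 ± 1.79, 18.2 ± 0.166, 13.4 ± 0.484, 11.95 ± 0.479, 5.401 ± 0.60 and 0.137 ± 0.0459 FPKM. In the WT libraries the means in that order were 78.1 ± 0.973, 26.8 ± 1.06, 11.4 ± 0.726, 7.125 ± 0.345, 3.95 ± 0.406 and 0.0676 ± 0.0237 FPKM (SD, n = 3 in each group). No neighbours in the order overlapped within a genotype. Pdgfrb lay above 97.4% of tested genes in mean FPKM, Pdgfra above 89.6% and Pdgfb above only 7.75%.

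**Figure D1:**
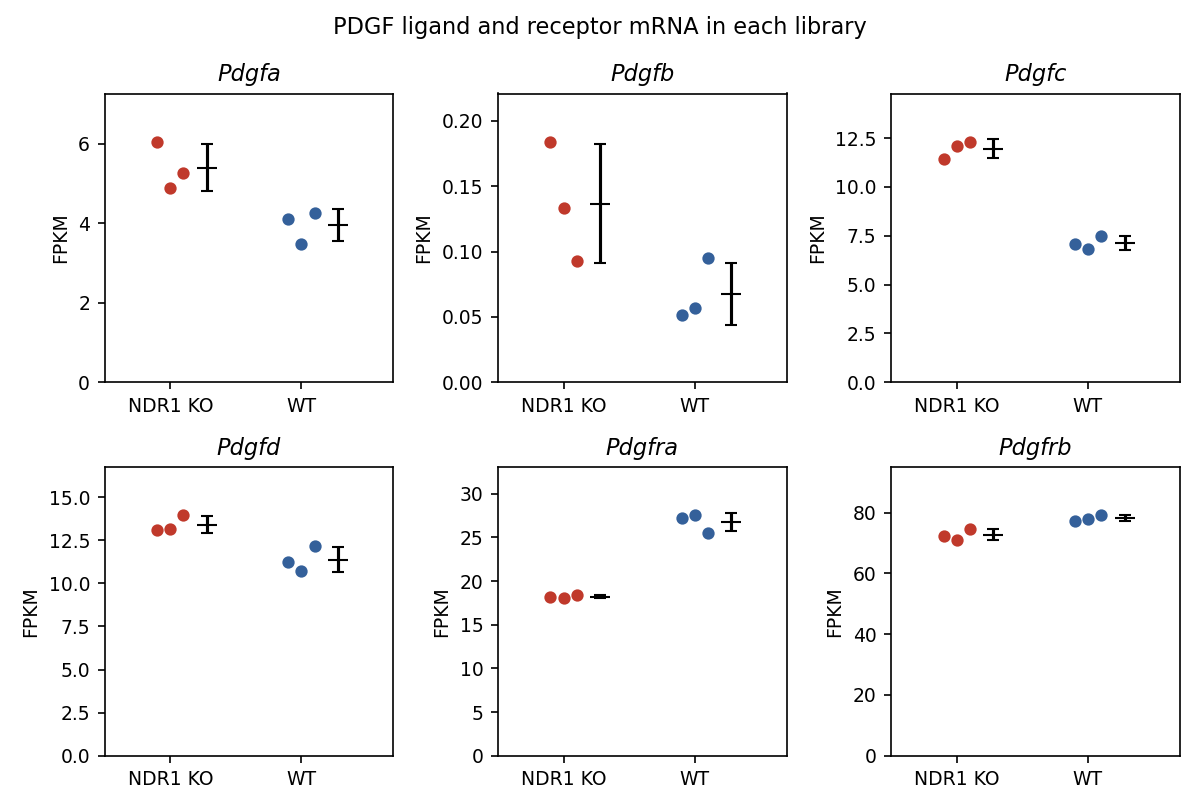
FPKM (vertical axes, starting at 0 and scaled to each gene) of the 6 PDGF genes in the 3 NDR1 KO libraries (red) and the 3 WT libraries (blue), 1 point per library, with the mean and SD in black beside them. KO and WT points are apart for every gene except Pdgfb, with KO above WT for Pdgfa, Pdgfc and Pdgfd and below it for Pdgfra and Pdgfrb.

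Pdgfc (ENSMUSG00000028019, chromosome 3, 80943723 to 81121347, plus strand) encodes a latent ligand of the alpha receptor. Its level was 11.4, 12.1 and 12.3 FPKM in KO libraries 1 to 3, against 7.08, 6.81 and 7.49 FPKM in WT libraries 1 to 3. The KO values lay wholly above the WT values and each group was tight, with a coefficient of variation of 4.46% in KO and 4.93% in WT. Scaled counts averaged 63.5 ± 2.83 CPM in KO and 39.2 ± 1.93 CPM in WT (SD, n = 3 each). The log2 change was 0.70 ± 0.05 (95% interval of the fold 1.49 to 1.76, edgeR, Benjamini-Hochberg adjusted p = 5.58e-06).

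Pdgfa (ENSMUSG00000025856, chromosome 5, 138961769 to 138983125, minus strand) encodes a ligand that binds the alpha receptor alone. It was read at 6.06, 4.88 and 5.27 FPKM in KO and at 4.12, 3.49 and 4.25 FPKM in WT. All KO values were above all WT values, with KO replicate 1 the highest and WT replicate 2 the lowest. The log2 change was 0.40 ± 0.10 (1.13-fold to 1.54-fold, edgeR, Benjamini-Hochberg adjusted p = 0.0165). With KO replicate 1 left out it did not pass (log2 change 0.31, edgeR adjusted p = 0.0723), nor with WT replicate 2 left out (0.32, 0.0601), in a range of 0.00167 to 0.0723 over 15 alternatives in edgeR, DESeq2 and limma. The start of Pdgfa overlaps 2315 bases of 6330403L08Rik, a gene on the other strand, which held 1059, 972 and 1122 counts in KO and 803, 852 and 736 counts in WT (log2 change 0.28 ± 0.09, edgeR adjusted p = 0.0408). No source used here states whether counting was stranded, so reads of these genes cannot be told apart and the Pdgfa values are uncertain.

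Pdgfd (ENSMUSG00000032006, chromosome 9, 6168584 to 6378845, plus strand) encodes a latent ligand of the beta receptor and was the most abundant ligand transcript per length. Its level was 13.1, 13.2 and 14.0 FPKM in KO, against 11.2, 10.7 and 12.2 FPKM in WT. The groups did not overlap, yet the distance between the lowest KO and the highest WT library was smaller than the spread within WT. The log2 change of 0.19 ± 0.06 (1.04-fold to 1.25-fold) had a Benjamini-Hochberg adjusted p of 0.0462 in edgeR. It did not pass without KO replicate 1, 2 or 3 (log2 change 0.21, 0.20 and 0.15, edgeR adjusted p = 0.0787, 0.0759 and 0.148) or without WT replicate 1 or 2 (0.18 and 0.14, adjusted p = 0.126 and 0.147), within 0.0140 to 0.148 over 15 alternatives.

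Pdgfb (ENSMUSG00000000489, chromosome 15, 79880075 to 79899178, minus strand) encodes the chain that binds both receptors and is known from platelets, endothelial cells and preosteoclasts. Only 61, 37 and 32 counts fell on it in KO and 16, 17 and 29 counts in WT. The groups overlapped after scaling, since the lowest KO library had 0.416 CPM and the highest WT library 0.432 CPM. The log2 change of 0.94 ± 0.45 missed the threshold (edgeR adjusted p = 0.176), and its interval ran from 0.96-fold to 3.85-fold, so the data do not settle whether it differed. By exact permutation of the CPM values (two-sided), p was 0.2 for Pdgfb and 0.1 for each of the other 5 genes, and 0.1 is the smallest that 3 against 3 libraries allow.

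Among the receptors, Pdgfra (ENSMUSG00000029231, chromosome 5, 75312953 to 75358876, plus strand) was read at 18.2, 18.03 and 18.4 FPKM in KO, against 27.2, 27.6 and 25.6 FPKM in WT. All KO libraries lay below all WT libraries, and the KO libraries varied by only 1.59%. The mean was 190.4 ± 3.03 CPM in KO and 289.9 ± 11.4 CPM in WT (SD, n = 3 each). The log2 change was -0.61 ± 0.03 (95% interval of the remaining level 62.5 to 69.1%, edgeR, Benjamini-Hochberg adjusted p = 5.12e-07). Pdgfrb (ENSMUSG00000024620, chromosome 18, 61178222 to 61218133, plus strand) was measured at 72.4, 71.0 and 74.6 FPKM in KO, against 77.3, 77.8 and 79.2 FPKM in WT. Its KO values were again wholly below the WT values, but the change was small, at -0.15 ± 0.03 (remaining level 86.2 to 93.9%, edgeR adjusted p = 0.00258). KO and WT did not overlap for 5 of the 6 genes, and for 38.2% of all genes tested. Coordinates are those of the deposited table, whose mouse build was not settled, since 0 of the 6 genes had the coordinates of GENCODE M21 on GRCm38.

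**Figure D2:**
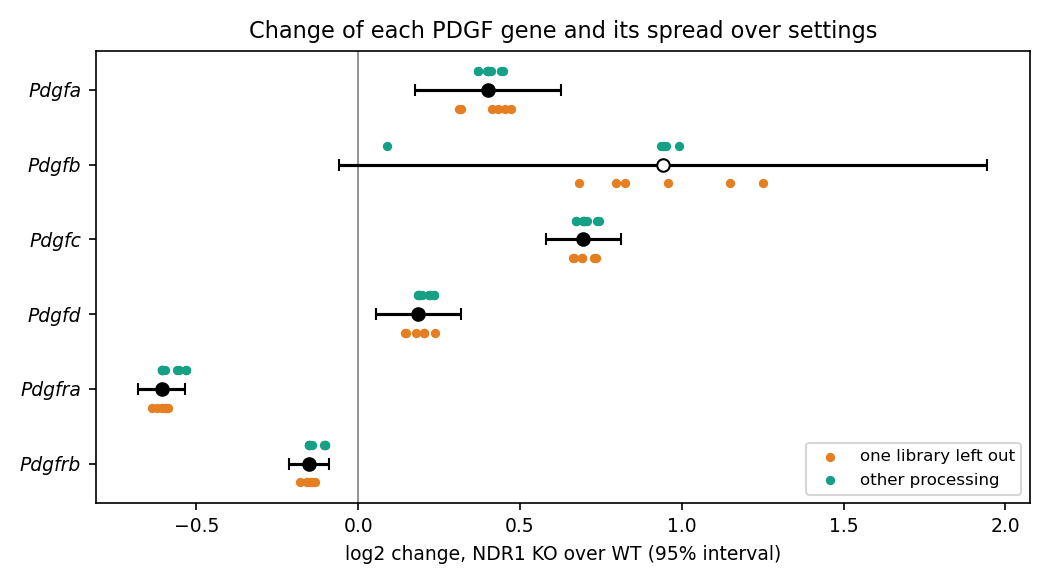
Log2 change, NDR1 KO over WT (horizontal axis), of each PDGF gene with its 95% interval in edgeR (black, filled where the adjusted p was under 0.05), the values with 1 library left out (orange) and those under other scalings, filters or tests (green). The points of Pdgfc and Pdgfra stay close to the edgeR value, while those of Pdgfb run from 0.68 to 1.25 with 1 library left out, and its point at 0.09 is limma on log2(FPKM + 1), where a pseudocount far above its level shrinks the change by construction.

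Ratios of 2 genes within a library do not depend on scaling between libraries, and are given as a description. Pdgfra stood at 0.251, 0.254 and 0.246 of the FPKM of Pdgfrb in the KO libraries and at 0.352, 0.354 and 0.323 in the WT libraries. Pdgfra therefore made up 20.02 ± 0.248% of the summed receptor FPKM in KO and 25.5 ± 0.976% in WT (SD, n = 3 each). The ratio of Pdgfc to Pdgfra, a ligand to its receptor, was 0.628, 0.672 and 0.671 in KO against 0.260, 0.247 and 0.293 in WT, and was 2.46 times as high in KO by the means.

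The 4 ligands summed to 30.7, 30.3 and 31.6 FPKM in KO and 22.5, 21.1 and 24.01 FPKM in WT, whereas the receptors summed to 90.6, 89.05 and 92.9 FPKM in KO and 104.5, 105.3 and 104.7 FPKM in WT. Within the ligand sum the share of Pdgfc was 38.7 ± 1.46% in KO and 31.65 ± 0.552% in WT, and that of Pdgfd 43.4 ± 0.774% in KO and 50.5 ± 0.488% in WT. The share of Pdgfa was 17.5 ± 1.94% in KO and 17.5 ± 0.898% in WT. Pdgfb held 0.444 ± 0.153% in KO and 0.297 ± 0.0869% in WT.

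**Figure D3:**
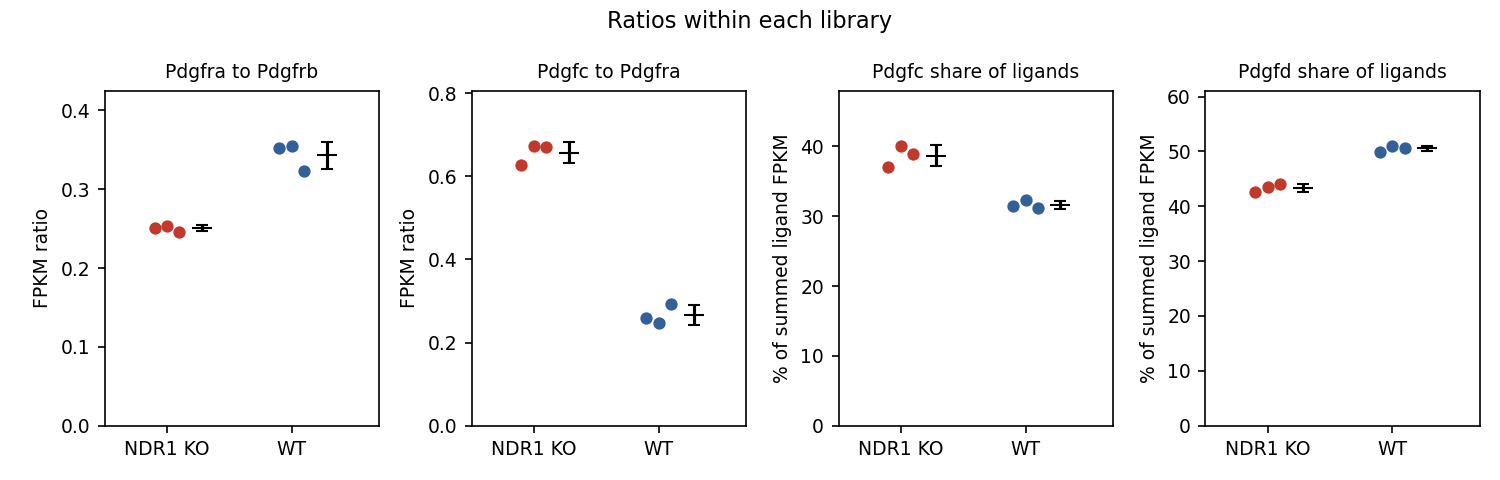
Ratios of FPKM and shares of the summed ligand FPKM (vertical axes, starting at 0) in the 3 NDR1 KO libraries (red) and the 3 WT libraries (blue), with mean and SD in black. Pdgfra relative to Pdgfrb is lower in every KO library, at 0.246 to 0.254 against 0.323 to 0.354, and Pdgfc relative to Pdgfra is higher.

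The sequences before the start sites of Pdgfc, the ligand that changed most among those that passed, of Pdgfra, the receptor that fell most, and of Pdgfd, the most abundant ligand, are shown to set genes that moved in opposite directions side by side. Each is the 250 bases upstream of the RefSeq start in GRCm38.p6 on the plus strand, at chr3:81036166-81036415, chr5:75152001-75152250 and chr9:6168236-6168485, written 5′ to 3′ with any match to 3 core promoter motifs in capitals. The GC box was searched as GGGCGG on both strands. The second motif was the CCAAT box, by the letters of its name. For the TATA box the letters were TATAAA, and no matches overlapped.
Pdgfc: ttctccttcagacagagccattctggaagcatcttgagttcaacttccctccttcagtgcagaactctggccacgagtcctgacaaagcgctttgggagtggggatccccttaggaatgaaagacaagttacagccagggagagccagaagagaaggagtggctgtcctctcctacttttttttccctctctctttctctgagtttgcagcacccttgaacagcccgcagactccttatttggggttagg
Pdgfra: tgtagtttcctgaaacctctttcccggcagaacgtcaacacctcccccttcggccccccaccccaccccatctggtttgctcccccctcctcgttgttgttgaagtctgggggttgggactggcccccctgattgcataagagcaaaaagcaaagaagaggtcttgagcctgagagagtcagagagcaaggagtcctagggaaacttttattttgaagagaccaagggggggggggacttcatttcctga
Pdgfd: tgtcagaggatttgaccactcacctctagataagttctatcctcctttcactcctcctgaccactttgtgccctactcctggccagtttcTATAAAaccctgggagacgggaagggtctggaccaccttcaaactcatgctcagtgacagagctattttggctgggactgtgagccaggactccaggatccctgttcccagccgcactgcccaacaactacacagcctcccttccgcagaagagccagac
Pdgfd held 1 TATA box, 160 bases before the RefSeq start, while neither Pdgfc nor Pdgfra held any of the 3 motifs in this window. Bases soon after the RefSeq start were found in a GENCODE M21 transcript of the gene for Pdgfc. For Pdgfra and Pdgfd they were not found, so their starts, and positions relative to them, were not borne out by this check. Of all 32851 windows of this length 32.7% held a GC box, 33.8% a CCAAT box and 12.4% a TATA box. The G and C content was 50.8% for Pdgfc, 54.4% for Pdgfra and 53.6% for Pdgfd, near the median of 52.4% over all windows. The windows of both RefSeq starts of Pdgfa were richer in G and C, at 66.4% and 72.4%, and held 1 and 2 GC boxes. Windows were examined for 4 of the 6 genes, Pdgfa, Pdgfc, Pdgfd and Pdgfra. None was examined for Pdgfb or Pdgfrb, which does not show that RefSeq lacks a start for Pdgfrb. A match of letters is a description and no measure of binding.

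Genes that act on PDGF ligands outside the cell moved in both directions. Of 7 proteases that process PDGF chains 3 rose and 1 fell. That is 57.1% called, against 22.9% of all genes tested and 28.4% of those with a mean of at least 1 FPKM. Plat, the tissue plasminogen activator that frees the C chain, stood at 8.35 ± 0.570 FPKM in KO and 6.06 ± 0.291 FPKM in WT (log2 change 0.41 ± 0.06, edgeR adjusted p = 6.38e-04). Plau, the urokinase that frees the D chain, changed by 0.56 ± 0.08 (edgeR adjusted p = 6.06e-04), and the membrane protease St14, another activator of the D chain, by 1.63 ± 0.23 at a low level (0.422 ± 0.0694 FPKM in KO and 0.128 ± 0.0295 FPKM in WT, adjusted p = 5.52e-04). The proprotein convertase Pcsk5 fell, with 1.98 ± 0.0883 FPKM in KO and 3.93 ± 0.154 FPKM in WT (-1.04 ± 0.05, edgeR adjusted p = 2.37e-07). Furin, a convertase of the A and B chains, was at -0.06 ± 0.03 and did not pass (edgeR adjusted p = 0.204).

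Of 10 proteins that bind PDGF or act with its receptors 4 rose and 5 fell (median log2 change -0.16, and 0.0038 over all genes tested). That is 90.0% called, against 22.9% of all genes tested and 28.4% of those with a mean of at least 1 FPKM. Pdgfrl, which encodes a protein resembling the ligand-binding part of the receptors, had 22.9 ± 0.679 FPKM in KO and 45.0 ± 0.927 FPKM in WT (-1.03 ± 0.04, edgeR adjusted p = 1.98e-08). The protease inhibitor A2m, which binds PDGF, changed by -2.04 ± 0.20 at a low level, with 0.138 ± 0.0286 FPKM in KO and 0.554 ± 0.0537 FPKM in WT (edgeR adjusted p = 4.48e-05). The integrin beta chain Itgb3, a partner of PDGF receptors at the membrane, changed by -0.80 ± 0.07, and the co-receptor Nrp1 by 0.44 ± 0.06 (edgeR adjusted p = 9.72e-06 and 3.28e-04).

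Genes that act inside the cell were read against the share of all genes called. Of 31 adaptors and effectors of the receptors 8 fell, 3 rose and 20 did not pass, with a median log2 change of -0.02. The share called was 35.5%, against 22.9% of all genes tested and 28.4% of those with a mean of at least 1 FPKM. Plcg1, which encodes phospholipase C gamma, had 12.4 ± 0.103 FPKM in KO and 15.2 ± 0.250 FPKM in WT (-0.34 ± 0.03, edgeR adjusted p = 1.50e-05). The PI3K genes Pik3r2, a regulatory subunit, and Pik3ca, a catalytic subunit, changed by -0.25 ± 0.03 and -0.23 ± 0.04 (edgeR adjusted p = 8.92e-05 and 0.00214). Other PI3K genes of the list were mixed, since Pik3r1 fell, Pik3r3 rose and Pik3cb did not pass (edgeR adjusted p = 0.00656, 0.0470 and 0.585). The SRC family kinase Yes1 was at -0.29 ± 0.08 (edgeR adjusted p = 0.0264). It did not pass with KO replicate 2, KO replicate 3 or WT replicate 1 left out (-0.31, -0.24 and -0.21, edgeR adjusted p = 0.0642, 0.0879 and 0.0940), nor in 5 further settings, with values of 0.00372 to 0.212 over all 15.

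Of 16 negative regulators of receptor signalling 4 rose, 1 fell and 11 did not pass, a share of 31.2% called that is near the 28.4% of genes with a mean of at least 1 FPKM. Dusp6, an ERK phosphatase, had 6.28 ± 0.273 FPKM in KO and 4.02 ± 0.317 FPKM in WT (0.59 ± 0.08, edgeR adjusted p = 2.89e-04). The adaptor Grb14 changed by 0.57 ± 0.05, the receptor phosphatase Ptprj by 0.39 ± 0.08, and Spry1, a Sprouty inhibitor of ERK signalling, by -0.49 ± 0.10 (edgeR adjusted p = 3.03e-05, 0.00707 and 0.00571). Ptprj did not pass in limma on log2(FPKM + 1) lacking a filter (0.28, adjusted p = 0.0564, in a range of 5.08e-04 to 0.0564).

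Of 18 early response genes of PDGF and serum 4 rose, 3 fell and 11 did not pass. That is 38.9% called, against 22.9% of all genes tested and 28.4% of those with a mean of at least 1 FPKM. Fosl1, an AP-1 subunit, had 1.32 ± 0.116 FPKM in KO and 0.564 ± 0.0551 FPKM in WT (1.17 ± 0.19, edgeR adjusted p = 0.00140). The hyaluronan synthase Has2 stood at 8.01 ± 0.557 FPKM in KO and 3.51 ± 0.189 FPKM in WT (1.14 ± 0.07, edgeR adjusted p = 1.52e-06). Both were higher in KO, as was Junb, another AP-1 subunit, at 0.58 ± 0.07 (edgeR adjusted p = 1.63e-04). The nuclear receptor Nr4a1 changed by -0.58 ± 0.11 (edgeR adjusted p = 0.00382) but did not pass in limma on log2(FPKM + 1) lacking a filter (-0.44, adjusted p = 0.0620, in a range of 2.76e-06 to 0.0620). The classical early genes Fos and Egr1 were at 0.01 ± 0.11 and 0.03 ± 0.05 and did not pass (edgeR adjusted p = 0.952 and 0.730).

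The receptor kinases nearest in kind to the PDGF receptors are Kit, Csf1r and Flt3, and of 6 such receptors and ligands tested 3 rose and 1 fell. Kit was hardly read, at 0.0115 ± 0.00630 FPKM in KO and 0.0219 ± 0.0215 FPKM in WT. Csf1r, the receptor of macrophage colony-stimulating factor, had 8.23 ± 0.479 FPKM in KO and 3.74 ± 0.713 FPKM in WT (1.09 ± 0.12, edgeR adjusted p = 7.02e-05). Csf1r is also 1 of the 14 macrophage markers described further on, all of which rose, with a median log2 change of 1.38, and the part of macrophages in its change was not tested. Its ligands Csf1 and Il34 changed by 0.20 ± 0.03 and -0.25 ± 0.06 (edgeR adjusted p = 5.77e-04 and 0.0157). Il34 did not pass with KO replicate 1, KO replicate 2 or WT replicate 3 left out (-0.23, -0.24 and -0.18, edgeR adjusted p = 0.0634, 0.0535 and 0.0587), in a range of 0.00102 to 0.118 over 15 alternatives. The KIT ligand gene Kitl was at 0.27 ± 0.09 (edgeR adjusted p = 0.0472), and it did not pass with KO replicate 1, KO replicate 3, WT replicate 1 or WT replicate 2 left out (0.22, 0.28, 0.26 and 0.23, adjusted p = 0.173, 0.1002, 0.119 and 0.144), nor with DESeq2 (0.0508), a replicate block (0.0603), no count filter (0.0774) or limma on log2(FPKM + 1) lacking a filter (0.1006). It thus missed the threshold in 8 of 15 alternatives, in a range of 0.0223 to 0.173. Over the 7 lists together 24 of 94 genes rose and 21 fell, a share of 47.9% against 22.9% of all genes tested and 28.4% of those with a mean of at least 1 FPKM, a level that 86 of the 94 reached. The 94 include the 6 PDGF genes, and without them 45.45% of 88 genes were called. These shares are a description, since the lists were chosen with earlier results of these data known.

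**Figure D4:**
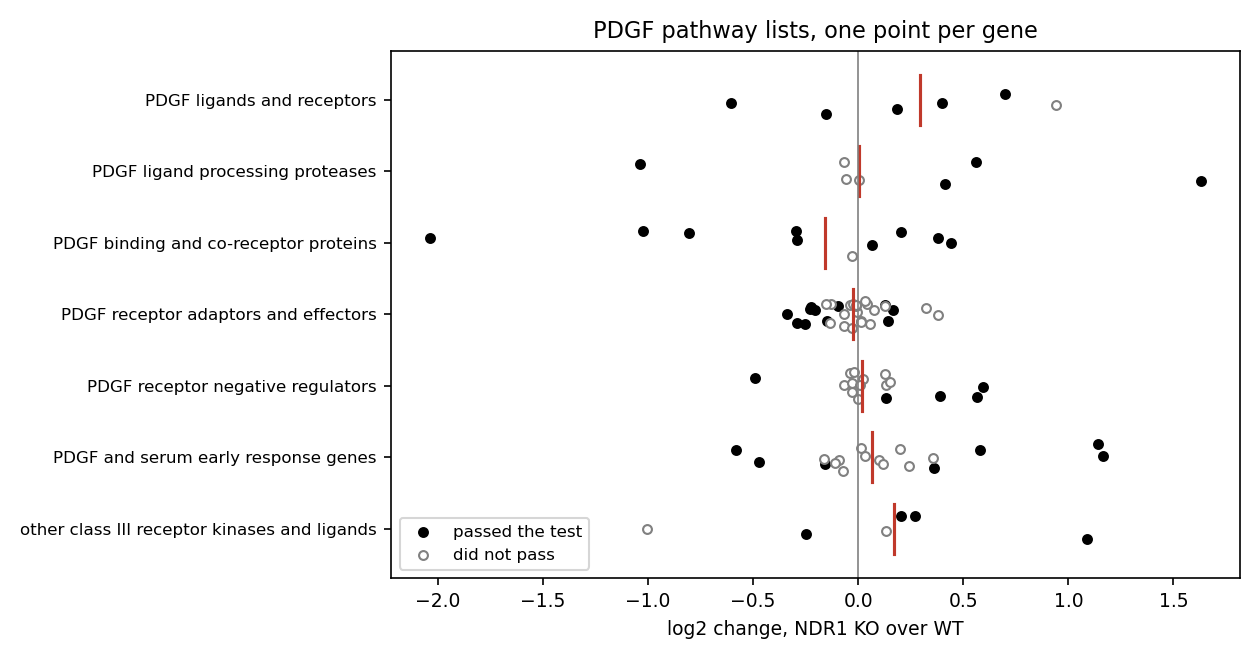
Log2 change, NDR1 KO over WT (horizontal axis), of each gene in the 7 PDGF lists (rows), filled where it passed edgeR's test, with the list median as a red line. The list medians lie between -0.16 and 0.29, and each list holds genes on both sides of 0.

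Markers of other cells that make or read PDGF also differed between the genotypes. Counts of markers that rose or fell stand beside 22.9% called among all genes tested. Among genes with a mean of at least 1 FPKM 28.4% were called. All 14 macrophage markers rose, their summed level being 1015 to 1124 CPM in KO and 399 to 521 CPM in WT, with Lyz2, Cd68 and C1qb the most abundant by FPKM. Of 8 endothelial markers tested, 4 fell (Cdh5, Tek, Erg and Plvap), none rose and 4 did not pass (Pecam1, Kdr, Egfl7 and Esam). The list summed to 11.9 to 14.2 CPM in KO and 24.7 to 25.6 CPM in WT. Most of that difference lay in Tek (mean 5.77 CPM in KO and 10.19 CPM in WT) and Erg (2.47 and 8.25 CPM). It does not describe the list as a whole, with Egfl7 at 2.55 CPM in KO and 2.57 CPM in WT. Of 9 pericyte markers 5 rose and 3 fell, Pdgfrb itself among the latter, and their sum of 655 to 684 CPM in KO overlapped the 666 to 684 CPM of WT. Pdgfrb made up most of that sum, at a mean of 415.6 CPM in KO and 461.9 CPM in WT. The overlap therefore does not show that the other pericyte markers were unchanged. Of 6 osteoclast markers Ctsk and Mmp9 fell, none rose and 4 did not pass, with a sum of 236 to 240.3 CPM in KO and 455 to 460.2 CPM in WT. The difference of the sums lay in the genes that fell, Mmp9 (mean 3.72 CPM in KO and 143.9 CPM in WT) and Ctsk (218.0 and 298.4 CPM). It does not describe the list as a whole, with Acp5 at 14.2 CPM in KO and 13.6 CPM in WT.

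Of 10 mesenchymal progenitor and fibroblast markers, which include Pdgfra, 7 fell and Ly6a rose. Their sum was 3181 to 3275 CPM in KO and 3444 to 3572 CPM in WT, but per length it ran the other way, at 630.4 to 663 FPKM in KO and 598 to 629.6 FPKM in WT. Ly6a weighs more in the FPKM sum, at a mean of 215.5 FPKM in KO and 138.2 FPKM in WT. The 7 genes that fell were lower in mean FPKM too. Of 8 smooth muscle markers 2 rose, 2 fell and 4 did not pass, with a sum of 3287 to 3538 CPM in KO and 3775 to 3900 CPM in WT. Acta2, which fell, made up most of that sum, at a mean of 2308 CPM in KO and 2656 CPM in WT. The sum does not describe the list as a whole, since Tagln and Myl9, the next most abundant, did not pass. The 4 platelet markers tested had edgeR adjusted p-values of 0.128 or more. That list summed to 5.56 to 6.19 CPM in KO and 5.38 to 6.13 CPM in WT, which overlap, and to 3.46 to 3.74 FPKM in KO and 2.18 to 3.17 FPKM in WT, which do not. The 3 glial markers tested had edgeR adjusted p-values of 0.358 or more. Their list overlapped in CPM, at 5.64 to 7.28 in KO and 6.42 to 7.60 in WT, and was apart in FPKM, at 0.886 to 1.11 in KO and 1.15 to 1.32 in WT. Of the 10 osteoblast markers 5 fell, Spp1 rose and 4 did not pass, with a sum of 44250 to 46630 CPM in KO and 60330 to 62080 CPM in WT. Most of that sum was Col1a1 (mean 23040 CPM in KO and 31680 CPM in WT) and Col1a2 (20300 and 28890 CPM). It does not describe the list as a whole, with Spp1 at 1730 CPM in KO and 658.1 CPM in WT. No marker measured was at 0 in every library. The part of these cells in the PDGF results was not tested.

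Genes whose level followed a PDGF gene most closely over the 6 libraries were named by Pearson's r of log2(CPM + 1), among genes with a mean of at least 10 CPM, as a description. Pdgfra was most like Mcc (r = 0.9996), Rbpjl (0.9991) and Tbc1d20 (0.9989), and Pdgfc most like Irs1 (0.9992), the insulin receptor substrate, Prnp (0.9984) and Rictor (0.9982), an mTORC2 subunit. Pdgfrb was most like Fzd8 (0.9943), Bnc2 (0.993) and Golgb1 (0.993), Pdgfa most like Acp2 (0.9942), Vps13a (0.9924) and Nup98 (0.9922), and Pdgfd most like Ahsa1 (0.9938), Nceh1 (0.9901) and F3 (0.9837). The 6 points share 2 groups of libraries, so any gene with a tight difference between genotypes reaches a high r. Not all genes named here had a called difference. Ahsa1, Vps13a and Acp2 did not pass (log2 change 0.04, 0.10 and 0.09, edgeR adjusted p = 0.478, 0.211 and 0.0931).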

How the data were processed

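The deposited table gave, per the file headers, a count and an FPKM for each gene in each of 6 libraries. The counts were whole numbers made by the authors by a method not given in the sources used here, and the FPKM were computed by the authors. Per the submitters' processing notes, cutadapt 1.9, HISAT2 2.0.4 and StringTie 1.3.4d were used, and a human build was listed although all identifiers are of mouse.

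In R 4.3.3, the quasi-likelihood test of edgeR 4.0.16 compared KO with WT counts without covariates, after TMM scaling and filterByExpr, two-sided and adjusted by Benjamini-Hochberg over 18221 genes. Each SE was derived from the F statistic and the log2 change. Alternatives used limma 3.58.1 on log2(FPKM + 1) or log2(FPKM + 0.1), DESeq2 1.42.0, other scalings and filters, and each library left out. Intervals cover the spread between these libraries, and depth is given with the results. The procedure was tested on simulated counts.

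The members and lists were chosen with earlier results of these data known. Named genes are the 6 members, Stk38, up to 4 passing genes of largest change per list, the most abundant markers and the 3 genes most like each member. Other named genes (Furin, Fos, Egr1, Kit, 6330403L08Rik, Cdh5, Plvap and those of the closing section) were chosen after their values were seen. The term lists of the closing section were taken from the table's annotation columns.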

Additional observations from a re-analysis of the deposited data

How the results depend on the processing

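Pdgfc, Pdgfra and Pdgfrb passed with the same direction in all 15 alternatives run for each, with log2 changes of 0.66 to 0.74, -0.64 to -0.53 and -0.18 to -0.10. Their highest adjusted p over edgeR, DESeq2 and limma was 7.21e-04, 5.59e-04 and 0.0476. Pdgfb did not pass in any of its 12 alternatives, and was left out by filters on a mean of at least 1 CPM or FPKM. With 1 library left out the log2 change ran from 0.31 to 0.47 for Pdgfa and from 0.14 to 0.24 for Pdgfd, and some of these did not pass, as given above. Pdgfa also did not pass in limma on log2(FPKM + 1) without a filter (0.37, adjusted p = 0.0609), and Pdgfd missed the threshold with no count filter in edgeR (0.20, adjusted p = 0.0696). The cause was not tested. Of all genes 4179 passed, with 3308 to 4555 under the alternatives. Genes lower in KO numbered 2131, but 1267, 1254 and 1246 in limma on log2(FPKM + 1), on log2(FPKM + 0.1) and without a filter, where 12 in place of 21 genes of the PDGF lists were lower. Of the calls 49.0% were higher in KO, but 63.0% with library totals without TMM and 62.3 to 64.5% in limma on FPKM. The labels number replicates alike in both genotypes, but same-numbered libraries did not deviate together (r of -0.07, -0.00 and 0.01), nor was each closest to its own number. With a replicate block 3888 genes and 42 of the PDGF lists passed (45 without it), with log2 changes of 0.40 for Pdgfa, 0.94 for Pdgfb, 0.70 for Pdgfc, 0.19 for Pdgfd, -0.61 for Pdgfra and -0.15 for Pdgfrb, and no call on these 6 changed. Of the other named genes of the PDGF lists, Kitl lost its call under the block (0.27, adjusted p = 0.0603). For Pdgfb, the coefficient of variation was 31.8% in KO and 33.5% in WT, above the 15.2% in KO and 22.0% in WT that counting error alone gives. Every other PDGF gene also varied more than counting error gives in both groups, such as Pdgfrb at 3.15% against 0.578% in KO.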

Other observations

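The annotation columns of the deposited table list 37 genes, the 6 PDGF genes among them, under the term for PDGF receptor signalling. Of these 8 rose, 11 fell and 18 did not pass in edgeR's quasi-likelihood test, with a median log2 change of -0.06, where 22.9% of all genes tested passed. Smpd3, a sphingomyelinase needed for normal bone mineralization, had 0.836 ± 0.0403 FPKM in KO and 2.74 ± 0.348 FPKM in WT (SD, n = 3 each), a log2 change of -1.76 ± 0.11 (edgeR adjusted p = 1.49e-06). Txnip, a regulator of thioredoxin, changed by -0.64 ± 0.05 and the myosin Myo1e by -0.48 ± 0.04 (edgeR adjusted p = 5.97e-06 and 7.32e-06). The proteoglycan Cspg4, known as NG2 and as a pericyte marker, changed by 0.20 ± 0.04 (edgeR adjusted p = 0.00749).

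A second term, for PDGF binding, holds 12 genes and includes 7 collagen genes. Of the 12 genes 6 fell, 2 rose and 4 did not pass. The share called was 66.7%, against 22.9% of all genes tested and 28.4% of those with a mean of at least 1 FPKM. Col1a1 and Col1a2 changed by -0.46 ± 0.02 and -0.51 ± 0.02, Col3a1 by -0.16 ± 0.02 and Col6a1 by -0.14 ± 0.02 (edgeR adjusted p = 1.87e-07, 4.04e-08, 1.21e-04 and 4.60e-04). Col2a1, the cartilage collagen, rose instead, with 465 ± 20.2 FPKM in KO and 297 ± 16.2 FPKM in WT (0.60 ± 0.04, edgeR adjusted p = 3.30e-06). The term shares Pdgfa, Pdgfb, Pdgfra and Pdgfrb with the genes described above, so its counts are not independent of them.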
